A study of Mus musculus with 12 samples.

Results

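Mouse embryos without an allantoic bud (OB) were compared with late-streak embryos (LS) for the histone marks H3K27ac and H3K4me1. The comparison rests on 4 of the 12 deposited peak lists of the series, 1 list per stage and mark: OB H3K27ac, LS H3K27ac, OB H3K4me1 and LS H3K4me1. The members were chosen by their stage labels, and each list holds the regions that the authors called as enriched. Peaks of the OB and LS lists of a mark were merged wherever they overlapped or touched, and each merged region was OB-only, LS-only or shared by which list had a peak in it.

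All embryos were C57BL/6. OB embryos were dissected at E7.25 and E7.5 and LS embryos at E7.0 and E7.25, so the collection times overlapped and the stage was set by morphology. The labels' protocols describe dissection away of extraembryonic tissue for LS and for the earlier stages Pre_PS (before the streak), ES (early streak) and MS (mid-streak). They say nothing of it for OB or the early headfold stage (EHF, E7.5), so dissection and stage cannot be told apart. Single cells were profiled with CoBATCH, in which an antibody directs the transposase Tn5 to marked chromatin, but each deposited list pools the cells of its library. Fewer cells of a type and less signal per cell therefore cannot be told apart. With 1 library per stage and mark there was no replicate, no test was made, and each difference below is one between 2 libraries.

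H3K27ac marks active promoters and enhancers, and H3K4me1 marks enhancers both before and during their activity, as well as the flanks of promoters. Between the late streak and the no-bud stage of the mouse, the primitive streak reaches its full length, mesoderm spreads between ectoderm and endoderm, and the node and the head process form. Epiblast genes are being shut down at this time, while Hox genes, cardiac genes and blood genes come into use.

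The depth of the H3K27ac lists was unequal. On chromosomes 1 to 19 and X, H3K27ac peaks numbered 34823 at OB and 39635 at LS and covered 36.4 Mb at OB and 42.1 Mb at LS. H3K4me1 peaks numbered 46041 at OB and 45666 at LS and covered 51.0 Mb at OB and 51.3 Mb at LS. The background behind the weakest peaks, which grows with sequencing depth, was 0.230 fragments at OB and 0.330 at LS for H3K27ac (a ratio of 0.697) and 0.329 at OB and 0.347 at LS for H3K4me1 (a ratio of 0.949). For H3K27ac, stage and depth cannot be told apart in any count below. Equal numbers of peaks even out the length of the lists and not the depth of the libraries.

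Sequences show what kind of promoter was called at OB and not at LS, or at LS and not at OB. Among the strongest stage-only regions that hold all 250 bases before a gene's start, the first pair of each H3K27ac class and the first of each H3K4me1 class are printed, with 1 shared promoter for contrast. The bases are RefSeq's for GRCm38.p6, the assembly that mm10 names, 5′ to 3′ on the strand of the gene, with each CG in capitals.

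OB-only H3K27ac, Ankrd31 (chr13:96748043-96748292, plus strand), 12 CG: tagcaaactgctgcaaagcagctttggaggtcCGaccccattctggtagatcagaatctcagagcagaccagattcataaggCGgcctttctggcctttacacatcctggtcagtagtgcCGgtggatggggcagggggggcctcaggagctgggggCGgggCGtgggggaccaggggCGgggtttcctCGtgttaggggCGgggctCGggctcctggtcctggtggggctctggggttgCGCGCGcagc
OB-only H3K27ac, Scgn (chr13:23991215-23991464, minus strand), 9 CG: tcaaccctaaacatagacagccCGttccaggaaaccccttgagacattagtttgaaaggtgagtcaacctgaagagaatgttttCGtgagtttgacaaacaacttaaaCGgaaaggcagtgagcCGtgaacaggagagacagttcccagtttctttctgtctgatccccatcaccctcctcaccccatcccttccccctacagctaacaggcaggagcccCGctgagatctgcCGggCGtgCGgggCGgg
LS-only H3K27ac, Sema4a (chr3:88458885-88459134, minus strand), 13 CG: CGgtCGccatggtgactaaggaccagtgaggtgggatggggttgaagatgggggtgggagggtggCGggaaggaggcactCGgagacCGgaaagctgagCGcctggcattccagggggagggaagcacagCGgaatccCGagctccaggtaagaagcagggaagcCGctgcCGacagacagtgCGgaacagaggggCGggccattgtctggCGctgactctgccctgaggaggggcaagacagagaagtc
LS-only H3K27ac, Slitrk2 (chrX:66652909-66653158, plus strand), 15 CG: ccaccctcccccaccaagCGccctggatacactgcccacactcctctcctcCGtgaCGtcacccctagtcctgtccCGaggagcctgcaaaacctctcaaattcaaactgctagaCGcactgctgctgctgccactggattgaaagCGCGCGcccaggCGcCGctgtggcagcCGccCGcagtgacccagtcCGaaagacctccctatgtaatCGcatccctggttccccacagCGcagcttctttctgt
Shared H3K27ac, Hjurp (chr1:88277580-88277829, minus strand), 16 CG: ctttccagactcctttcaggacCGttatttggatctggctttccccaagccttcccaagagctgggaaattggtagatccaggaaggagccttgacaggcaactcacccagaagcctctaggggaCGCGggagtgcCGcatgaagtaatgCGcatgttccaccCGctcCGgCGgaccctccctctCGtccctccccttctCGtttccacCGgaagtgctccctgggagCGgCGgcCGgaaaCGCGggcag
OB-only H3K4me1, Dnah14 (chr1:181576343-181576592, plus strand), 9 CG: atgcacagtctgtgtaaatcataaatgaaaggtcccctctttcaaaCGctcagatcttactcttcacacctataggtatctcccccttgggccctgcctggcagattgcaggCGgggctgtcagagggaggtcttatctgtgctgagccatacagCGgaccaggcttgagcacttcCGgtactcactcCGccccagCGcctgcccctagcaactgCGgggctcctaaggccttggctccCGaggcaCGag
LS-only H3K4me1, Zcchc10 (chr11:53324439-53324688, plus strand), 7 CG: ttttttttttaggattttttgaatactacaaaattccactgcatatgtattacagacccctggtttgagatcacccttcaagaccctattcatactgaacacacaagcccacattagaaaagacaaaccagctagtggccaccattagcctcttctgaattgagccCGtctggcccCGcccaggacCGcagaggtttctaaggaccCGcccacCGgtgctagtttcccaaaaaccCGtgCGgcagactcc

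Ankrd31 encodes a protein of meiotic chromosomes, Scgn a calcium-binding protein of endocrine cells, Sema4a a semaphorin, Slitrk2 a transmembrane protein of neurons, Dnah14 a dynein heavy chain and Hjurp the chaperone of the centromeric histone CENP-A. The OB-only peak over the Ankrd31 promoter was 441 bp wide with an authors' fold of 6.64, and no list of another stage had H3K27ac there. The one over Scgn was 588 bp wide with a fold of 4.90, and ES, MS and EHF had H3K27ac there too. Sema4a and Slitrk2, with folds of 7.73 and 7.77 in the LS list, also carried the mark at ES, MS and EHF. The Hjurp promoter lay in a shared region of 1031 bp with a fold of 42.7 in its stronger list.

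These promoters are single cases and do not show the difference between the classes: Slitrk2, with 15 CG, is near Hjurp, with 16. The classes were compared over all promoters. RefSeq windows from 250 bases before to 50 after a start were available for 17273 of 21627 protein-coding genes (21044 windows of 300 bp). Windows with H3K27ac at OB alone held a median of 8 CG (144 windows) and those with it at LS alone 9 (455 windows), against 22 in the 12260 windows with H3K27ac at both stages and 3 in the 8185 with it at neither. At least 10 CG were found in 38.9% of the OB-alone windows and 44.2% of the LS-alone windows, with overlapping 95% Wilson intervals of 31.3 to 47.0% and 39.7 to 48.8%. The share was 91.1% of windows marked at both stages and 57.3% of all windows. For H3K4me1 the medians were 7 CG at OB alone, 8 at LS alone and 22 at both. Promoters marked at 1 of the stages had fewer CG than those marked at both, and their medians differed by 1 CG between OB and LS.

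Most of the marked genome was common to both stages. For H3K27ac, 30215 of 43561 merged regions were shared (69.4%), 4123 were OB-only (9.46%) and 9223 were LS-only (21.2%). With equal numbers of peaks, taken by the authors' −log10 q, the OB-only and LS-only counts came to 5554 and 5862. For H3K4me1, 37817 of 52830 regions were shared (71.6%), 7656 were OB-only (14.5%) and 7357 were LS-only (13.9%). Counted in bases, the shared part made up 88.1% of the OB and 76.0% of the LS H3K27ac list, and 82.9% of the OB and 82.3% of the LS H3K4me1 list. LS-only H3K27ac regions outnumbered OB-only ones, by much less with lists of equal length, and the H3K4me1 classes were nearly equal in number.

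The shared fraction between OB and LS can be set beside those of other neighbouring stages. With equal numbers of peaks, 71.6% of H3K27ac regions were shared between OB and LS, against 70.8% between EHF and OB and 69.0% between LS and MS. For H3K4me1 the values were 71.8% between OB and LS, 72.1% between EHF and OB and 66.5% between LS and MS. The lowest shared fractions, 53.8% for H3K27ac and 32.6% for H3K4me1, were those between ES and Pre_PS. The Pre_PS lists had the lowest backgrounds of the series, 0.0499 fragments for H3K27ac and 0.0144 for H3K4me1. At Pre_PS, 14.4% of H3K27ac and 67.3% of H3K4me1 peaks were at the lowest −log10 q of their list. The part of depth in these low fractions was not tested. The pairs of neighbouring stages have libraries in common, so the values are given side by side and not compared further.

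Stage-only regions were narrow and weak. OB-only H3K27ac regions had a median width of 375 bp and LS-only ones 397 bp, against 1006 bp for shared regions, and together the OB-only regions covered 1.77 Mb and the LS-only regions 4.28 Mb. The fold is a value of the authors' peak caller that is used here only within a list. Each region was given the fold of its strongest peak in the list. The median was 3.95 for OB-only against 7.60 for shared regions in the OB list. It was 3.94 for LS-only against 9.03 for shared regions in the LS list. A shared region joins peaks of both lists and can hold several peaks of a list, which raises its width and its strongest fold. OB-only and LS-only H3K4me1 regions were 394 and 392 bp wide at the median, with median folds of 3.82 and 3.77.

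**Figure D1:**
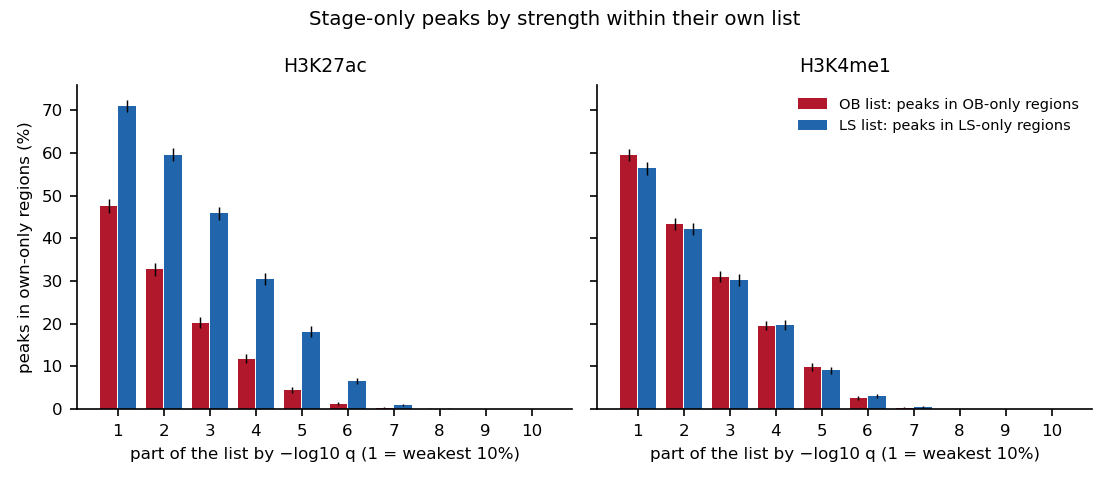
Share of peaks that lie in regions of their own stage alone (vertical axis, percent), in 10 equal parts of the OB list (red) or LS list (blue) ranked by −log10 q from weakest to strongest (horizontal axis). Bars carry 95% Wilson intervals; the share falls from the weakest peaks towards 0, and no stage-only peak is in the strongest 25% of a list.

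The plot of stage-only peaks by strength shows how the classes are distributed within their lists. In the weakest 10% of the H3K27ac lists, 47.7% of OB peaks were OB-only and 71.1% of LS peaks were LS-only. In the weakest 10% of the H3K4me1 lists the shares were 59.5% at OB and 56.4% at LS. Only 51 of the 4123 OB-only and 299 of the 9223 LS-only H3K27ac regions reached the stronger 50% of their list, and 139 of 7656 and 161 of 7357 did for H3K4me1. No stage-only region of either mark was in the strongest 25% of its list.

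Stage-only regions lay mostly away from gene ends. Far regions, over 1 kb from both outer ends of all protein-coding genes, made up 92.9% of OB-only, 92.0% of LS-only and 54.9% of shared H3K27ac regions. For H3K4me1 they made up 93.9% of OB-only, 93.5% of LS-only and 61.9% of shared regions. The 95% Wilson intervals of OB-only and LS-only overlapped for both marks. With equal numbers of H3K27ac peaks they did not, with 93.1% of OB-only (92.4 to 93.7%) against 91.3% of LS-only regions (90.6 to 92.0%). Regions were also drawn anew from lists cut to their stronger 50%, which gave 988 OB-only and 3455 LS-only H3K27ac regions. Of these, 82.2% of OB-only and 71.9% of LS-only regions were far. The median distance to a gene end was 19.3 kb for OB-only and 18.4 kb for LS-only H3K27ac regions, and 2.13 kb for shared ones. Inside genes lay 53.8% of OB-only, 56.3% of LS-only and 76.6% of shared H3K27ac regions.

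**Figure D2:**
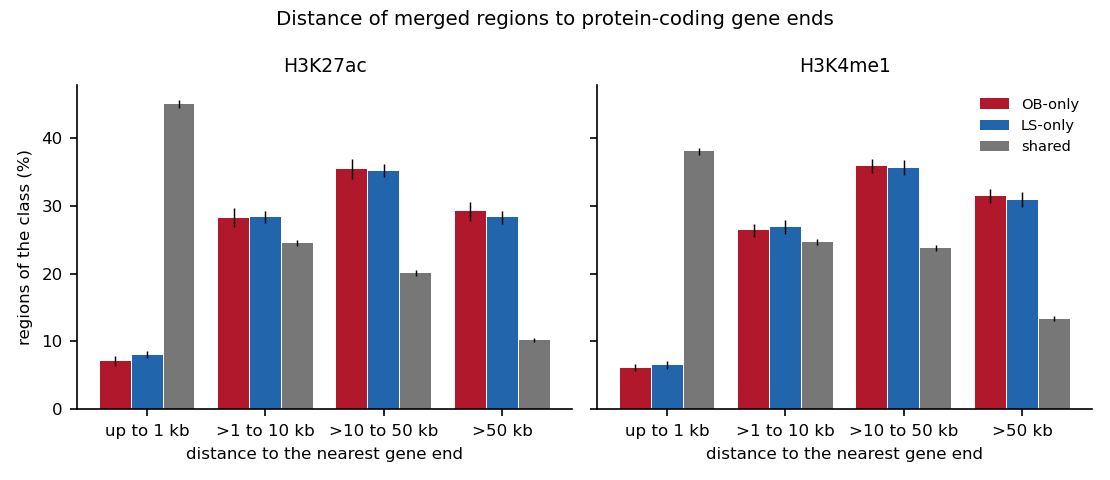
Share of OB-only (red), LS-only (blue) and shared (grey) regions (vertical axis, percent of the class) in 4 bins of distance to the nearest protein-coding gene end (horizontal axis), with 95% Wilson intervals. OB-only and LS-only bars are of nearly the same height in each bin, and shared regions lead in the nearest bin with 45.1% (H3K27ac) and 38.1% (H3K4me1).

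In the distance plot, shared regions had the largest share up to 1 kb and the smallest in each further bin, for both marks. Over 50 kb from a gene end lay 29.2% of OB-only and 28.3% of LS-only H3K27ac regions, against 10.2% of shared ones. OB-only and LS-only intervals overlapped in all 4 bins of both marks, and the interval of shared regions lay apart from both in all 4 bins of both marks.

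The lists of the other stages were not used to make the classes, and they ask whether a region seen at OB and not at LS goes on to EHF. H3K27ac was present at EHF in 24.9% of OB-only regions (95% Wilson interval 23.6 to 26.2%) and in 28.9% of LS-only regions (28.0 to 29.8%). At MS it was present in 20.2% of OB-only and 23.5% of LS-only regions. With equal numbers of peaks the EHF shares were 29.7% of OB-only and 35.4% of LS-only regions. Over all regions of a class, the OB-only share was the lower one at the later neighbour as well as at the earlier one. Among regions in the weakest 25% of their list, EHF shares were 20.9% of 3206 OB-only and 21.4% of 6138 LS-only regions. Their MS shares were 18.0% and 18.5%. Among those from 25 to 50%, EHF shares were 37.2% and 41.2% and MS shares 26.8% and 31.1%. The part of strength in the difference over all regions was not tested. Presence at EHF without MS held for 17.2% of OB-only and 18.3% of LS-only regions. Presence at EHF and at none of Pre_PS, ES and MS held for 9.58% of OB-only and 9.47% of LS-only regions. Presence at MS without EHF held for 12.4% of OB-only and 12.9% of LS-only regions.

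For H3K4me1 the classes were closer still at EHF and MS, though not at ES. At EHF it was present in 16.9% of OB-only and 16.8% of LS-only regions, and at MS in 29.5% of OB-only and 29.6% of LS-only regions. No other stage had H3K27ac in 44.1% of OB-only, 41.3% of LS-only and 3.41% of shared regions. For H3K4me1 these shares were 36.6%, 38.5% and 3.34%.

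**Figure D3:**
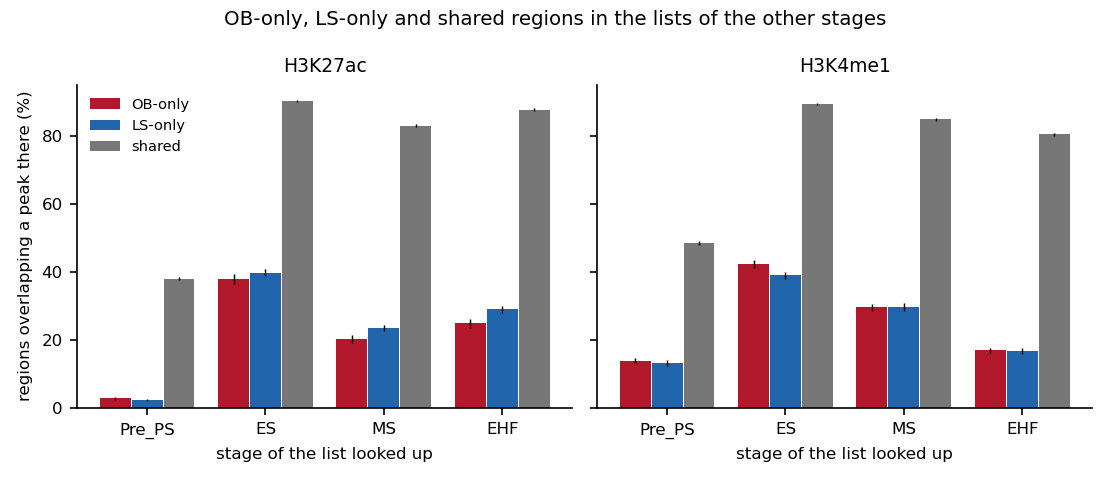
Share of OB-only (red), LS-only (blue) and shared (grey) regions (vertical axis, percent of the class) that overlap a peak of the same mark at Pre_PS, ES, MS or EHF (horizontal axis), with 95% Wilson intervals. Red and blue bars stand close together at each stage, with the highest stage-only shares at ES, while shared regions reach 80.5 to 90.3% at ES, MS and EHF.

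As the plot of the other stages shows, the highest recurrence of stage-only regions was at ES, with 37.7% of OB-only and 39.7% of LS-only H3K27ac regions and 42.2% of OB-only and 38.9% of LS-only H3K4me1 regions. The ES lists are among the longest of the series, with 36930 H3K27ac and 47849 H3K4me1 peaks, and their part in this recurrence was not tested. Recurrence rose with strength. Of the 51 OB-only H3K27ac regions in the stronger 50% of the OB list, 64.7% had H3K27ac at EHF, 45.1% at MS and 62.7% at ES. Of the 299 such LS-only regions in the LS list, 67.2% had it at EHF, 53.8% at MS and 71.9% at ES.

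The other mark gave a second reading of the regions. Of OB-only H3K27ac regions, 59.5% carried H3K4me1 at OB (58.0 to 61.0%) and 55.3% at LS (53.8 to 56.8%). Of LS-only H3K27ac regions, 64.0% carried it at OB and 64.0% at LS. At each stage taken alone, most stage-only H3K27ac regions thus had H3K4me1. It was called at both OB and LS in 42.1% of OB-only and 49.6% of LS-only regions, and at neither in 27.3% and 21.6%. Shared H3K27ac regions carried H3K4me1 in 97.1% of cases at OB and 96.8% at LS.

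Few regions were confined to 1 of the stages in both marks. Among the 4123 OB-only H3K27ac regions, 690 (16.7%) overlapped an OB-only H3K4me1 region and 530 (12.9%) an LS-only one. Among the 9223 LS-only H3K27ac regions, 1290 (14.0%) overlapped an OB-only and 1291 (14.0%) an LS-only H3K4me1 region. Of all merged H3K4me1 regions, 14.5% were OB-only and 13.9% LS-only, so these overlaps lay near the overall shares. In the other direction, H3K27ac at OB was found in 17.4% of OB-only and 14.9% of LS-only H3K4me1 regions, and H3K27ac at LS in 25.3% of each class. The longer LS H3K27ac list moves with the last values, and its part was not tested.

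Named regions were the 5 strongest of each class and mark that kept their class under 3 other ways of drawing regions. All 20 overlapped a peak of the same mark at another stage. The strongest OB-only H3K27ac region, chr2:164799495-164800022 of mm10, lay inside Acot8, an acyl-CoA thioesterase gene, 5091 bp from Zswim3, and had a fold of 10.5 in the OB list. The next lay in Bag3, a co-chaperone gene (chr7:128531239-128531656), in Samd4b, which encodes an RNA-binding protein (chr7:28401297-28401822), and in Intu, a gene of cilium formation (chr3:40683194-40683766). The last lay 424403 bp from Gpc5, a glypican gene (chr14:114667368-114667797). All 5 also had H3K27ac at ES and EHF, 4 of them at MS, and all 5 had H3K4me1 at OB. For 4 of the 5, LS was thus the only stage from ES to EHF without a call.

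Of the 5 named LS-only H3K27ac regions, 1 lay at chr3:34634489-34635068, 14926 bp from Sox2, the transcription factor of epiblast and neural ectoderm. Its fold was 10.8 in the LS list. H3K27ac was also called there at ES, MS and EHF, and H3K4me1 at both OB and LS, so the region was missing from the OB list between stages that had it. The others lay in Zswim6, 54 bp from an outer end of Armc4, in Lrp4, a coreceptor gene of Wnt and agrin signalling, and 19401 bp from Phtf2. H3K27ac was present at MS in all 5, at ES in 4 and at EHF in 4.

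The strongest OB-only H3K4me1 regions lay in Plekhg6, Agpat4, Nrde2, Rpf2 and Ndst1, and the strongest LS-only ones in Frs2, an adaptor of FGF receptors, in Sox30 and Tenm2, and nearest to Akap7 and Brinp1. At EHF, 3 of the 5 OB-only and all 5 LS-only regions carried H3K4me1. The region in Frs2 (chr10:117099162-117099791) had a fold of 10.0 at LS, was 630 bp wide, and carried H3K27ac at OB and LS.

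Stage-only regions were also counted by gene. Each base up to 100 kb from a gene end was assigned to the protein-coding gene with the closest end, and the bases assigned to a gene are called its territory. OB-only H3K27ac regions fell in 2848 territories, of which 2447 held 1 and 5 held at least 5, and 905 of the 3352 regions assigned shared a territory with another of their class. LS-only H3K27ac regions fell in 5292 territories, of which 3811 held 1 and 103 held at least 5, and 3894 of 7705 (50.5%) shared a territory. For H3K4me1, 42.6% of OB-only and 45.3% of LS-only regions did. Chosen after their values were seen, the territories with the most OB-only H3K27ac regions were those of Rbm19 (7 OB-only and 8 LS-only), Nfatc2 (5 and 8), Sh3pxd2a (5 and 10), Wscd2 (5 and 2) and Zfp236 (5 and 3). Of these 5 territories, 3 held more LS-only than OB-only regions. Glis1, a zinc finger gene, had 8 OB-only and 0 LS-only H3K4me1 regions, and Cstad had 0 OB-only and 9 LS-only H3K27ac regions, also chosen after the values were seen.

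At gene ends the lists were nearly the same. Of 14257 genes with H3K27ac within 1 kb of an end, 13615 had it at both stages, 182 at OB alone (1.28%) and 460 at LS alone (3.23%). Of 14664 genes with H3K4me1 there, 14076 had it at both, 279 at OB alone (1.90%) and 309 at LS alone (2.11%). With equal numbers of peaks the H3K27ac counts were 237 at OB alone and 344 at LS alone.

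Territories were compared by their share, the covered bp of the territory per covered Mb of the library, which takes out the total length called. A territory was called where the higher share was at least 1.5 times the lower and at least 2 kb was covered in the higher library. For H3K27ac, 325 of 6485 territories were higher at OB (5.01%), 572 were lower (8.82%), and 86.2% were within the ratio. For H3K4me1, 461 of 7803 were higher at OB (5.91%) and 483 were lower (6.19%). Without scaling to the covered Mb, the H3K27ac calls were 155 higher and 1033 lower, since the shorter OB list moves each ratio by -0.21 on the log2 scale. The scaled median ratio was 1.04 for H3K27ac and 1.00 for H3K4me1. H3K27ac counts in either direction thus depend on the scaling, and the H3K4me1 counts (450 and 499 unscaled) do so little.

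**Figure D4:**
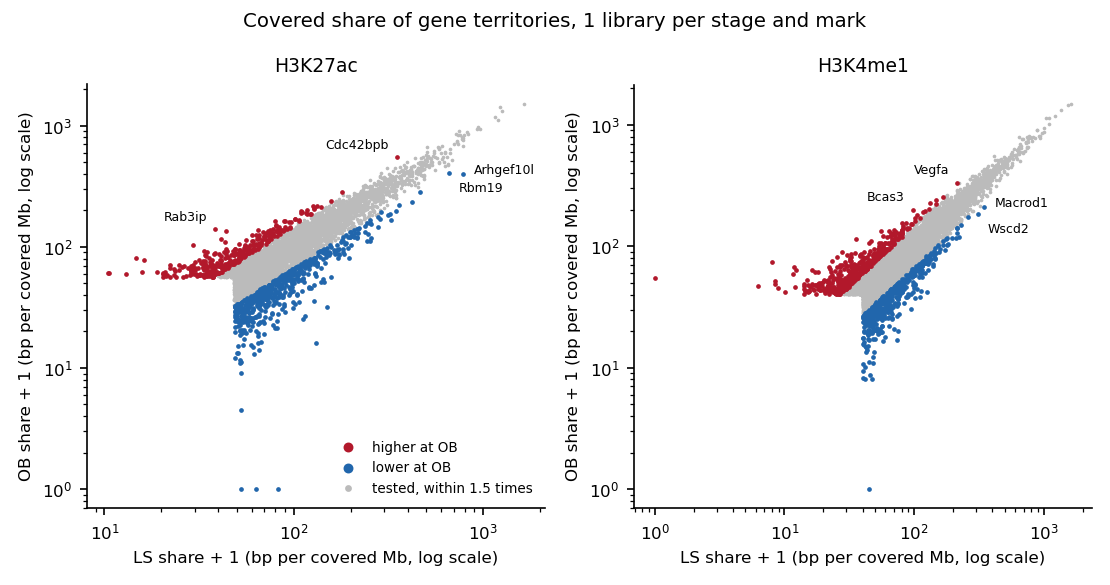
Share of each territory at OB (vertical axis, bp per covered Mb plus 1, log scale) against its share at LS (horizontal axis, same unit) for the 6485 H3K27ac and 7803 H3K4me1 territories tested. Red points are called higher and blue points lower at OB, grey points are within 1.5 times; the first 2 named genes of each direction carry their symbols.

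The scatter of territories shows most points along the diagonal, with wider scatter at low shares, where calls are most frequent. The named genes are the 10 of each mark and direction with the largest difference that kept its direction with equal numbers of peaks and in the stronger 50% of each list. They were read from these values, so the values describe them and support nothing else. The rule asked for the direction alone. In the stronger 50% of peaks the differences of 26 of these 40 genes were smaller by over 1.5 times, 11 of them under 20% of their size with all peaks. Some named territories held shared regions alone, so their differences are in the width called and not in stage-only regions. They were Cchcr1, Puf60, Dolpp1 and Nectin4 in H3K27ac, and Fmnl1, Bsg, Eif3k, Macrod1, Mpp2 and Bmp1 in H3K4me1.

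The gene with the largest difference in H3K27ac share in the higher direction was Cdc42bpb, a kinase that acts with Cdc42 on actomyosin (chr12:111292972-111379313). It had a share of 545 bp per Mb at OB against 351 at LS, or 19.8 against 14.8 kb. At ES, MS and EHF its share was 399, 282 and 366, so OB was the highest of the stages. Rab3ip, an exchange factor for Rab8 in cilium formation, had 140 bp per Mb at OB against 37.5 at LS, with 4 OB-only and 0 LS-only regions. Its share was 67.6 at MS and 114 at EHF, so here EHF was closer to OB. Myh10, which encodes the heavy chain of a nonmuscle myosin, had 189 at OB against 109 at LS, and Nectin4, an adhesion molecule, 162 at OB against 88.1 at LS. In the stronger 50% of peaks the differences of Cdc42bpb, Rab3ip, Myh10 and Nectin4 were 14.2, 11.3, 20.4 and 0.51 bp per Mb, against 195, 102, 80.1 and 74.1 with all peaks.

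The other H3K27ac genes higher at OB were Ampd2 (AMP deaminase), Ank1 (ankyrin of the red cell membrane), Cchcr1, Puf60 (a splicing factor), Dolpp1 (dolichol recycling) and Ap3m2 (an adaptor of vesicle transport). Their ratios of OB over LS lay between 1.61 for Puf60 and 3.57 for Ap3m2. Ap3m2 had 102 bp per Mb at OB against 28.5 at LS, but 95.3 at MS and 34.1 at EHF. The differences of Ank1, Ampd2 and Dolpp1 came down to 1.00, 2.68 and 11.3 bp per Mb in the stronger 50% of peaks, against 82.5, 82.6 and 74.5 with all peaks, and that of Puf60 was larger there (198 against 77.0). Of the 10 genes, 5 were higher and 5 lower at EHF than at MS.

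Among the genes with a lower H3K27ac share at OB were a TGF-beta regulator and a DNA methyltransferase. Pmepa1, which encodes an inhibitor of Smad2 and Smad3 signalling (chr2:173224458-173276731), had 232 bp per Mb at OB against 419 at LS, with 0 OB-only and 7 LS-only regions. At ES, MS and EHF it had 449.5, 391 and 223, so the lower level at OB was also found at EHF. Dnmt3a, the de novo DNA methyltransferase of the epiblast (chr12:3801559-3914443), had 284 bp per Mb at OB against 465 at LS, with 0 OB-only and 7 LS-only regions. Its share was 292 at ES and 305 at both MS and EHF, so LS stood above the other stages and OB was near them. Arhgef10l, which encodes a guanine nucleotide exchange factor, had the largest difference, with 397 bp per Mb at OB against 787 at LS. Its share was 694 at ES, 329.5 at MS and 385 at EHF, so ES also stood above MS, OB and EHF. That difference of -390.0 bp per Mb was -237 with a reach of 50 kb, behind Rbm19 (-251), and -47.0 in the stronger 50% of peaks, behind Pmepa1 (-218). Dnmt3a had a difference of -93.8 in the stronger 50%, against -181 with all peaks.

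Rbm19, a gene of ribosomal RNA processing, had 405 bp per Mb at OB against 659 at LS, and Dysf, which encodes the membrane repair protein dysferlin, 117 at OB against 255 at LS. The remaining genes lower at OB were Dnah17 (an axonemal dynein), Kcnab2 (a potassium channel subunit), Adam11, Kazn (a desmosomal protein) and Acsf3 (malonyl-CoA synthetase). Their LS shares were 1.75 to 2.44 times their OB shares. In the stronger 50% of peaks the differences of Rbm19, Dysf, Dnah17, Kcnab2, Kazn and Acsf3 were all smaller by over 1.5 times, down to -6.53 bp per Mb for Kazn (-132 with all peaks), and that of Adam11 was -139 against -138. Kazn had -87.8 with a reach of 50 kb, and Acsf3 -66.9 with equal numbers of peaks against -115 with all. Of the 10 genes, 6 were lower and 4 higher at EHF than at MS.

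Among H3K4me1 territories, Vegfa, the growth factor of endothelium and blood islands (chr17:46016993-46032377), was the gene with the largest difference in the higher direction when all peaks and the full reach were used. Its share was 334 bp per Mb at OB against 215 at LS, or 17.0 against 11.0 kb, with 4 OB-only, 3 LS-only and 11 shared regions. At ES, MS and EHF it was 242, 170 and 235, so OB was again the highest stage. The difference of 119 bp per Mb came to 55.7 with a reach of 50 kb and 56.3 in the stronger 50% of peaks, both below Bcas3 (81.0 and 106). Bcas3, a gene of endothelial cell movement, had 199 bp per Mb at OB against 97.7 at LS, a difference of 101 that was 53.6 without floor peaks, those at the lowest −log10 q of their list. Bsg, which encodes the membrane protein basigin, had 154 at OB against 85.7 at LS, all of it within 1 shared region. Eif3k, a subunit of a translation initiation factor, had 72.6 at OB against 7.05 at LS, and 0 at EHF. Pakap, Acp7, Castor2, Aifm3, Fmnl1 (a formin) and Exoc3l4 completed the group, with ratios between 1.52 and 3.31. In the stronger 50% of peaks the difference of Bsg was larger (114 against 68.8 bp per Mb), while those of Acp7, Eif3k, Pakap, Exoc3l4 and Castor2 were smaller by over 1.5 times, down to 5.35 for Acp7. With a reach of 50 kb those of Pakap and Castor2 were 49.6 and 47.9, against 79.5 and 75.3. At EHF, 3 of the 10 were higher and 7 lower than at MS.

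H3K4me1 was lower at OB over Nes, which encodes nestin, the intermediate filament of neural progenitors (chr3:87971093-87980451). Its share was 40.8 bp per Mb at OB against 124 at LS, and 42.5 at MS and 80.6 at EHF. Bmp1, the protease that processes procollagen and chordin, had 149 at OB against 229 at LS, and 159 at MS and 164 at EHF. Macrod1, an ADP-ribosylhydrolase gene, had the largest difference, with 209 bp per Mb at OB against 347 at LS, and 369 at EHF. Wscd2, Mpped1, Bop1 (ribosome assembly), Mpp2, 6430548M08Rik, Dpcd and Vti1a (a vesicle SNARE) were lower as well, with LS shares 1.51 to 1.87 times the OB shares. In the stronger 50% of peaks the differences of Nes, Wscd2, Mpped1, 6430548M08Rik and Vti1a were smaller by over 1.5 times, and that of Macrod1 was -162 against -138 bp per Mb with all peaks. At EHF, 5 of the 10 were lower and 5 higher than at MS.

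The MS and EHF lists took no part in the calls, so their difference was read across all called territories. Among the 325 territories higher in H3K27ac at OB, 170 had a larger share at EHF than at MS (52.3%, 95% Wilson interval 46.9 to 57.7%), and among the 572 lower at OB, 303 did (53.0%, 48.9 to 57.0%). The share among all 6485 tested was 53.6%. For H3K4me1, EHF was above MS in 221 of 461 territories higher at OB (47.9%), in 243 of 483 lower at OB (50.3%) and in 58.7% of all 7803. The share with EHF above MS was thus nearly the same in territories called higher and in those called lower at OB.

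Calls in both marks were more frequent than over all territories, whether the directions of the marks were the same or opposite. Of the 325 territories higher in H3K27ac at OB, 9.54% were called higher and 8.31% lower in H3K4me1, and of the 572 lower in H3K27ac, 8.74% were higher and 7.34% lower, against 3.52% and 3.53% of all 6485. In numbers, 31 were higher at OB in both, 42 were lower in both, 27 were higher in H3K27ac and lower in H3K4me1, and 50 were the opposite. The marks thus did not share a direction more often than they differed. Calls were most frequent at low shares, and the part of low coverage in this excess was not tested.

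Listed genes were read in 22 lists of 370 genes in all, 17 of germ layers, epiblast, Hox genes and signalling pathways and 5 of extraembryonic tissues, housekeeping and adult tissue. Of the listed genes tested for H3K27ac, 4 of 253 were higher at OB (1.58%) and 13 were lower (5.14%), both below the 5.01% and 8.82% of all territories. For H3K4me1, 6 of 282 were higher (2.13%) and 7 were lower (2.48%), below the 5.91% and 6.19% of all. The 17 lists alone had 4 higher and 10 lower of 231 tested in H3K27ac, and 5 higher and 6 lower of 257 in H3K4me1. Summed over a list, the ratio of OB over LS ran from 0.923 to 1.09 for H3K27ac and from 0.925 to 1.09 for H3K4me1 in these 17, and from 0.718 to 1.13 and from 0.921 to 1.28 in the other 5. Of the 30 calls of listed genes in a mark, 6 turned their direction in the stronger 50% of peaks, 3 had no difference there, 6 were smaller and 6 larger by over 1.5 times, and 9 were within 1.5 times. On unscaled bp all 22 H3K27ac sums were lower at OB, so the direction of the lists that were higher rests on the scaling.

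**Figure D5:**
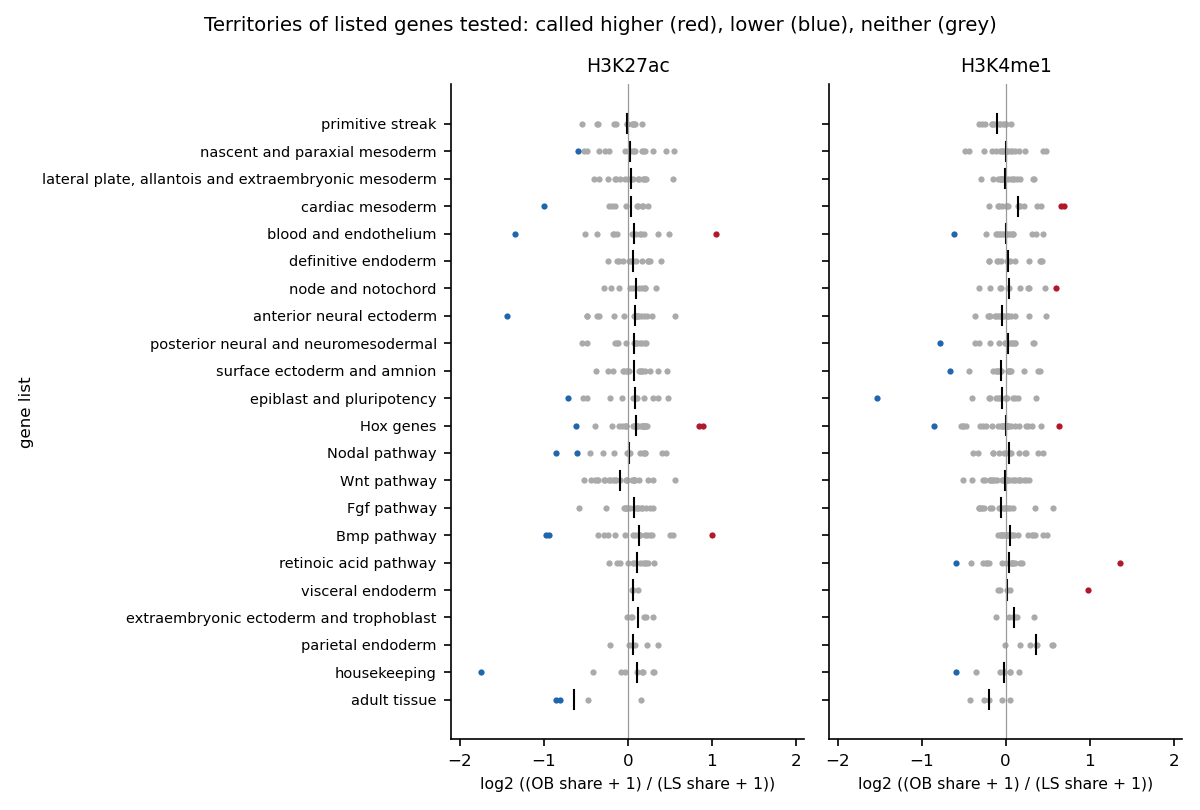
The log2 of the OB share plus 1 over the LS share plus 1 (horizontal axis) for each tested gene of the 22 lists (rows), for H3K27ac and H3K4me1. Red points are called higher at OB, blue points lower and grey points neither; black ticks are list medians, which lie near 0 in nearly all lists, so most listed genes had like shares at OB and LS.

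In the plot of the lists, which holds tested genes alone, the streak genes lie near 0. All 17 primitive streak genes had both marks near a gene end at both stages, and 0 of the 12 tested were called in either mark. T (Brachyury), the transcription factor of streak and notochord, had an H3K27ac share of 25.7 bp per Mb at OB against 22.2 at LS. Eomes, which directs early mesendoderm, had 97.8 at OB against 86.9 at LS, and Mixl1, a homeobox gene of mesendoderm, 36.9 at OB against 29.8 at LS. Their H3K4me1 shares had ratios of 1.05 for T, 0.956 for Eomes and 0.986 for Mixl1.

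Of 18 tested genes of nascent and paraxial mesoderm, 0 were higher and 1 was lower in H3K27ac, and 0 of 19 were called in H3K4me1. The one called was Tcf15, a bHLH factor of paraxial mesoderm, with 51.9 bp per Mb at OB against 78.6 at LS. Mesp1, the first factor of cardiac and cranial mesoderm, had 157 at OB against 107 at LS in H3K27ac, under the ratio required. In the lateral plate, allantois and extraembryonic mesoderm list, 0 of 17 tested genes were called in either mark, and Hand1, a factor of lateral and extraembryonic mesoderm, had 228 at OB against 199 at LS.

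Cardiac mesoderm had 0 higher and 1 lower of 10 tested genes in H3K27ac, and 2 higher and 0 lower of 15 in H3K4me1. Myh7, a heavy chain of cardiac myosin, was lower in H3K27ac (40.9 at OB against 82.8 at LS) and higher in H3K4me1 (115 at OB against 70.6 at LS). Its differences in the stronger 50% of peaks were 0 in H3K27ac and 2.16 bp per Mb in H3K4me1. Tnnt2, cardiac troponin T, had H3K4me1 at 56.3 bp per Mb at OB against 35.4 at LS, and listed at 0 at EHF. Its difference was 0 in the stronger 50% of peaks. Nkx2-5 and Gata4, factors of the early heart, had H3K27ac ratios of 1.08 and 1.18.

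Among 14 tested genes of blood and endothelium, 1 was higher and 1 lower in H3K27ac, and 0 of 17 were higher and 1 lower in H3K4me1. Klf1, the factor of red cell genes, had an H3K27ac share of 69.4 at OB against 32.9 at LS, and 33.8 at EHF. Erg, an ETS factor of endothelium, had 21.5 at OB against 56.1 at LS, a direction that turned when the territory was limited to 50 kb or to the stronger 50% of peaks. Cdh5, the cadherin of endothelium, had H3K4me1 at 75.0 at OB against 116 at LS. Tal1, which starts blood formation, had H3K27ac at 136 at OB against 96.3 at LS, under the ratio required. Hbb-bh1, an embryonic globin gene, had neither mark at OB or LS.

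No gene of the definitive endoderm list was called in either mark (13 tested in each), and Sox17 had H3K27ac shares of 84.7 at OB and 81.4 at LS. In the node and notochord list, 0 of 10 were called in H3K27ac and 1 of 11 was higher in H3K4me1, Foxd4, a forkhead factor, with 82.4 at OB against 53.9 at LS and 97.2 at EHF.

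Of the 19 tested genes of anterior neural ectoderm, 1 was lower in H3K27ac and 0 were called in H3K4me1. Zic1, a zinc finger factor of neural plate, had 21.1 bp per Mb at OB against 59.0 at LS, with 0 OB-only and 3 LS-only regions, and 57.6 at EHF. Its difference of -37.9 bp per Mb was -18.9 with equal numbers of peaks and -16.7 with a reach of 50 kb, and its direction turned in the stronger 50% of peaks. Sox2 had 148 at OB against 206 at LS in H3K27ac, under the ratio required, with 0 OB-only and 4 LS-only regions, among them the one named above. Its share was 197 at MS and 233 at EHF, so OB was the lowest of the later stages. In the posterior neural and neuromesodermal list, 0 of 14 were called in H3K27ac and 1 of 16 was lower in H3K4me1, the neural crest factor Pax3, with 44.9 at OB against 78.1 at LS. In the surface ectoderm and amnion list, 0 of 16 were called in H3K27ac and 1 of 17 was lower in H3K4me1, Tfap2b, with 62.2 at OB against 99.3 at LS.

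Genes of epiblast and pluripotency had 0 higher and 1 lower of 12 tested in H3K27ac, Dnmt3a, and 0 higher and 1 lower of 14 in H3K4me1. That one was Pou5f1, which encodes the pluripotency factor OCT4, with 18.7 bp per Mb at OB against 55.9 at LS, 23.3 at MS and 27.2 at EHF. Its H3K27ac share was 24.2 at OB against 22.3 at LS. Nanog, another pluripotency factor, had H3K27ac at 43.1 at OB against 38.4 at LS and H3K4me1 at 28.4 at OB against 38.8 at LS.

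The 39 Hox genes all had coverage of both marks in their territories. In H3K27ac 2 of 27 tested were higher and 1 was lower, and in H3K4me1 1 of 34 was higher and 1 lower. Hoxd8 had an H3K27ac share of 57.8 at OB against 31.6 at LS and Hoxd9 89.6 at OB against 47.5 at LS, neighbouring genes of the HoxD cluster. Hoxd8 had 54.3 at MS and 58.4 at EHF and Hoxd9 71.0 at MS and 54.0 at EHF, so LS was the lowest of these stages for both. Hoxc12 was lower in H3K27ac (42.0 at OB against 65.0 at LS), and its difference of -23.0 bp per Mb was -14.3 with equal numbers of peaks. In H3K4me1, Hoxd11 was higher (54.0 at OB against 34.6 at LS) and Hoxb13 lower (44.3 at OB against 80.6 at LS). Hoxa2 and Hoxa3, toward the early expressed end of HoxA, had H3K27ac ratios of 1.06 and 1.16.

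In the Nodal pathway, 2 of 15 tested genes were lower in H3K27ac and 0 of 15 were called in H3K4me1. They were Pmepa1, given above, and Acvr1b, the type I receptor of Nodal, with 130 bp per Mb at OB against 199 at LS and 195 at EHF. The direction of Acvr1b turned in the stronger 50% of peaks. The ligand gene Nodal had 54.5 at OB against 61.0 at LS, and the inhibitor genes Lefty1 and Lefty2 had ratios of 1.15 and 1.01.

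In the Bmp pathway, 1 of 21 tested genes was higher and 2 were lower in H3K27ac, and 0 of 21 were called in H3K4me1. All 3 encode the Smad proteins that carry the Bmp signal. Smad5 had 65.4 bp per Mb at OB against 32.1 at LS, Smad1 50.2 at OB against 97.3 at LS, and Smad9 33.6 at OB against 66.7 at LS. Smad1 and Smad9 had 0 OB-only and 2 and 4 LS-only regions, and Smad9 turned its direction in the stronger 50% of peaks. The difference of Smad5 was 1.65 bp per Mb without floor peaks and 3.69 in the stronger 50%, against 33.3 with all peaks. That of Smad1 was -6.06 in the stronger 50%, against -47.1. The ligand gene Bmp4 had 194 at OB against 198 at LS.

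The Wnt and Fgf pathways held no called gene in either mark, among 25 and 17 tested in H3K27ac and 26 and 18 in H3K4me1. Wnt1, a ligand of midbrain patterning, had 156 at OB against 105 at LS in H3K27ac, just under the ratio required. Fgf5, a ligand of the epiblast, had 48.4 at OB against 46.0 at LS in H3K27ac. It had under 2 kb covered in each list and was not tested. In the retinoic acid pathway, 0 of 12 were called in H3K27ac, and 1 was higher and 1 lower of 16 in H3K4me1. Stra6, the receptor for retinol uptake, had 46.6 at OB against 17.6 at LS, and Aldh1a3, a retinaldehyde dehydrogenase gene, 27.4 at OB against 41.6 at LS. Their differences were 0 and -1.87 bp per Mb in the stronger 50% of peaks, against 29.0 and -14.2 with all peaks. Aldh1a2, the enzyme that makes retinoic acid in early mesoderm, had H3K27ac at 97.7 at OB against 97.5 at LS.

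Markers of extraembryonic tissue were read because dissection may differ between OB and LS. The summed H3K27ac share of the visceral endoderm list was 365 bp per Mb at OB against 344 at LS, with Ttr, Afp and Rhox5 at 0 in both. That of the trophoblast list was 1476 at OB against 1401 at LS, with Tpbpa, Prl3d1, Rhox6 and Rhox9 at 0 in both, and that of the parietal endoderm list 833 at OB against 739 at LS. In H3K4me1 the sums were 342 at OB against 332 at LS, 1521 at OB against 1439 at LS, and 863 at OB against 672 at LS. The visceral endoderm list holds Sox17 and the trophoblast list Hand1, which were also read above as genes of definitive endoderm and lateral mesoderm. The sums therefore do not separate extraembryonic from embryonic cells. Of the members tested, 0 were called in H3K27ac (3, 6 and 6 tested), and in H3K4me1 1 of 5 visceral endoderm genes was higher, Hnf4a, a factor of liver and visceral endoderm (52.0 at OB against 25.8 at LS, a difference of 26.2 bp per Mb that was 2.32 in the stronger 50% of peaks), with 0 of 6 and 0 of 7 in the others. The parietal endoderm list had the largest ratio of all lists, 1.28 in H3K4me1, where Lamb1, a laminin gene, had 68.4 at OB against 46.0 at LS. Its part in the other results was not tested.

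Reference lists also held called genes. Of the housekeeping genes, 1 of 9 was lower in H3K27ac, Rplp0, a ribosomal protein gene (23.2 at OB against 80.5 at LS and 96.5 at EHF), and 1 of 8 was lower in H3K4me1, Hsp90ab1 (42.9 at OB against 65.1 at LS). Of the adult tissue genes, 2 of 4 were lower in H3K27ac: Ckm, the muscle creatine kinase (94.8 at OB against 172 at LS), and Mbp, myelin basic protein (87.3 at OB against 154 at LS). Both turned their direction in the stronger 50% of peaks. In H3K4me1, 0 of 5 were called, and Alb, Ins1 and Gcg, genes of adult liver and pancreas, had neither mark at OB or LS.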

How the data were processed

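Single cells of C57BL/6 embryos were profiled with CoBATCH. The submitters' processing notes name mm10 and the tools Bowtie2, Picard, MACS2 and deepTools. Versions, settings and cell numbers were not given there. The deposited broad peak lists hold a fold over background per peak and −log10 p and −log10 q values, all as the authors deposited them. The deposited score column, 10 times −log10 q, was not used.

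Peaks on chromosomes 1 to 19 and X were merged per mark in Python 3.11.15 with numpy 2.4.6 and pandas 2.3.3. Gene positions came from RefSeq (GRCm38.p6, 21627 protein-coding genes) without strand, so both gene ends were used. Total fragments are unknown: depth was read from the weakest peak, where fold is (pileup + 1)/(background + 1) and p a Poisson probability. Intervals are 95% Wilson intervals and cover counting error only. Functions were tested on simulated data. The members, gene lists and rules were chosen with earlier results of these data known. Named genes were the 10 largest differences per mark and direction that kept their direction with equal numbers of peaks and in the upper 50% by −log10 q, the 5 strongest regions per class that kept their class, and called list members; the first members of lists and other genes named beside them were chosen after their values were seen. The 22 lists are those named in the results.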

Additional observations from a re-analysis of the deposited data

Results flagged for a closer look

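Peaks on the Y chromosome, the mitochondrial genome and unplaced sequences stood outside all comparisons. They numbered 40 in the OB and 33 in the LS H3K27ac list, and 50 in the OB and 44 in the LS H3K4me1 list, each above the 3 counts that a count of 0 allows. They are given as values only.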

How the results depend on the processing

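No paired analysis was possible because each stage and mark had 1 library. Merging peaks over 1 kb and a territory reach of 50 kb left all summary values within their intervals or within 1.5 times. Equal numbers of peaks, taken within each mark, gave a median fold of 3.86 for OB-only H3K4me1 regions and, for H3K27ac, 5862 LS-only regions, 91.3% of them far from gene ends against 93.1% of OB-only ones, a median LS-only fold of 4.42, H3K27ac at EHF in 29.7% of OB-only and 35.4% of LS-only regions, and H3K4me1 at the opposite stage in 61.0% of OB-only and 72.7% of LS-only regions. Where 50% of a region had to be covered, these shares were 30.5% and 36.4% at EHF, 60.0% and 68.7% with H3K4me1, and 91.5% and 89.6% far; for H3K4me1 regions they were 23.7% and 24.6%, 32.2% and 22.4% with H3K27ac, and 92.2% and 91.5%. Without floor peaks the EHF shares were 27.7% and 31.2% for H3K27ac and 18.5% and 18.7% for H3K4me1, the shares with the other mark 59.9% and 67.6%, and 27.5% and 16.3%, and the median folds 4.08 and 4.04, and 3.93 and 3.91. With near set at 2.5 kb, 87.1% of OB-only and 86.1% of LS-only H3K27ac and 89.1% and 88.1% of H3K4me1 regions were far.

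Each list was cut to its upper 50% before regions were drawn, so regions with a weaker peak in the other list could be stage-only. OB-only and LS-only regions then numbered 988 and 3455 for H3K27ac and 2497 and 2360 for H3K4me1. Their median folds were 7.39 and 7.88, and 7.14 and 7.26. Of them, 89.4% and 91.6%, and 80.8% and 81.7%, were present at EHF, 82.2% and 71.9%, and 83.4% and 82.4%, were far, and 97.1% and 98.5%, and 86.5% and 71.4%, had the other mark at the opposite stage. H3K27ac then marked an end of 833 genes at LS alone. The differences in share (OB minus LS, bp per Mb) of Acvr1b (5.99), Ckm (31.3), Erg (5.19), Mbp (12.0), Smad9 (7.64) and Zic1 (5.97) were then positive, and that of Erg was also positive (2.96) with a reach of 50 kb. Of the differences of the 40 named genes, 39 stayed within 1.5 times with equal numbers of peaks, 35 with a reach of 50 kb, 39 without floor peaks and 12 in the upper 50%. The cause was not tested.

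Territories called higher and lower at OB numbered 82 and 175 for H3K27ac and 129 and 130 for H3K4me1 with a ratio of 2, 1297 and 2075, and 1712 and 1580, with no minimum of covered bases, and 155 and 1033 for H3K27ac on unscaled bp. Listed genes called higher and lower were 2 and 4 (H3K27ac) and 2 and 1 (H3K4me1) with a ratio of 2, and 11 and 31, and 12 and 14, with no minimum. Lower H3K27ac calls among them were 30 on unscaled bp; in the upper 50% of peaks there were 13 higher and 26 lower in H3K27ac and 21 lower in H3K4me1.

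The lists set the limits. Absence from a list means only that no peak passed the caller's threshold, and the OB H3K27ac library had the lower background (0.230 against 0.330 fragments at LS). Without replicates, the spread between embryos or libraries of 1 stage is unknown.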
